A study of Arabidopsis thaliana with 9 samples.

Results

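Ferritins store iron inside plant cells, and 6 further genes described here move, chelate or sense iron within the plant. The 10 genes are the ferritin genes FER1, FER2, FER3 and FER4, the ferric reductase genes FRO6 and FRO7, the transporter gene OPT3, the nicotianamine synthase gene NAS4, the transcription factor gene PYE and the ubiquitin ligase gene BTS. They were chosen by locus, out of the 33602 genes of the count table, with earlier results from these same counts known, so their values are given as a description and no p-value is printed for them. All 10 passed the filter on low counts, which left 20986 genes to test. The data are polyadenylated RNA counts from whole Arabidopsis thaliana seedlings, 6 days old, raised in liquid Murashige and Skoog medium with sucrose, in 3 groups of 3 libraries. The first group, called mock WT here, is the Col-0 accession given a mock solution of ethanol diluted 5000-fold. The second, JA WT, is Col-0 given jasmonate, a stress hormone, at 5 µM for 3 h (the labels write the dose as µm). The last, mock lhp1, is a mutant of LHP1, a Polycomb protein that binds silenced chromatin, given the mock solution, and an allele (lhp1-3) stands in the column names alone. One mutant line was measured, and no complemented line was analysed here.

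Iron is needed in chloroplasts for photosynthesis and becomes harmful when it is free. Plant ferritins are protein cages, found mainly in plastids, that take up and release iron, and in Arabidopsis FER1, FER3 and FER4 are the forms of vegetative tissue while FER2 is the form of seeds. FRO6 and FRO7 reduce ferric iron in shoots, FRO7 at the chloroplast and FRO6 at the plasma membrane, OPT3 loads iron into the phloem, and NAS4 makes nicotianamine, which keeps iron soluble on its way. PYE is a basic helix-loop-helix repressor of iron genes, and BTS marks other such factors for degradation. Jasmonate is known to hold down root iron uptake genes in Arabidopsis.

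The regions around the start sites of FER1, FER3, FRO6 and FRO7 are shown because FER1 and FER3 gave most of the ferritin RNA and because FRO6 and FRO7 are neighbours with similar sequence. Each runs from 250 bases before to 50 bases after the annotated start in RefSeq's TAIR10.1 assembly, on the gene's own minus strand, and capitals mark the G-box. The regions are chr5:230002-230301 for FER1, chr3:20815986-20816285 for FER3, chr5:20204546-20204845 for FRO6 and chr5:20208728-20209027 for FRO7.
FER1: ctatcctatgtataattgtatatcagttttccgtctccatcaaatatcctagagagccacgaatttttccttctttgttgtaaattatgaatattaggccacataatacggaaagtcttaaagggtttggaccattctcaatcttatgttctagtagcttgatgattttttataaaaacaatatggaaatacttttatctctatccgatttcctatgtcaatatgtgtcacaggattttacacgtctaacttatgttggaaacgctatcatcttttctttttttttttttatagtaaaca
FER3: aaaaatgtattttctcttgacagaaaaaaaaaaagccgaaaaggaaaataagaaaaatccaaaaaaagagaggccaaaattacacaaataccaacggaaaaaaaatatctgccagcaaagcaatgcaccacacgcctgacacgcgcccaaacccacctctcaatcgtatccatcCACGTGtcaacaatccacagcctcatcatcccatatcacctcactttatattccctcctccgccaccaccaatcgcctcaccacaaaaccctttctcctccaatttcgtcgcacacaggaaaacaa
FRO6: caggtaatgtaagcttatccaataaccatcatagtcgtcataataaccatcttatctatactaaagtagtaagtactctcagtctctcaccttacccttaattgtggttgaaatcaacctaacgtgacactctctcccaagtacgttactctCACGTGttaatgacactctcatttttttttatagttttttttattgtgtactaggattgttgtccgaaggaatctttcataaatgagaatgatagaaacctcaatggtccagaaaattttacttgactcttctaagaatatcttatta
FRO7: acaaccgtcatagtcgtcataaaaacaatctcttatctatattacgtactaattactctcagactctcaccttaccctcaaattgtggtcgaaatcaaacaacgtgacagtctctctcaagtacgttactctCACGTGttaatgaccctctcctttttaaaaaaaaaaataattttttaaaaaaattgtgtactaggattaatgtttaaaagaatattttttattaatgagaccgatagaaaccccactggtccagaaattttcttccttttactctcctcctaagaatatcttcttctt

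The G-box, CACGTG, is a sequence that basic helix-loop-helix and bZIP factors can bind, and it reads the same on both strands. Of the 9 genes whose windows were read it stood in 6, once each in FER2, FER3, FRO6, FRO7 and OPT3 and in 3 copies in BTS, against 7.68% of 27443 protein-coding genes. In FER3 its first base lay at -76 from the start, and the FER2 copy lay inside the transcript, at 32 to 37. FRO6 and FRO7 shared an identical run of 29 bases that held their G-box, with its first base at -98 in FRO6 and at -118 in FRO7. FER1 shared at most 8 bases in a row with FER3 and held no G-box. Also searched on both strands were the P1BS (GNATATNC), known as a binding sequence of the phosphate factor PHR1, and a core of the iron-dependent regulatory sequence (GAGNCCNCC). Neither matched in any of the 9 windows, against 6.25% and 0.583% of all windows, which says only that these letters are absent from these bases. No copies of the 3 motifs overlapped in these windows.

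FER1 (AT5G01600) lies on chromosome 5 from 227953 to 230051, minus strand, and overlaps an antisense noncoding gene, AT5G01595, without sharing exon bases. That gene had 55 to 224 counts a library against 1760 to 40260 for FER1. FER2 (AT3G11050) lies on chromosome 3 from 3463477 to 3465506, plus strand, FER3 (AT3G56090) on chromosome 3 from 20813904 to 20816035, minus strand, and FER4 (AT2G40300) on chromosome 2 from 16831109 to 16833294, minus strand. The FER4 exons share 118 bases, 9.42% of their length, with AT2G40290 on the same strand, so part of the FER4 count is uncertain. FRO6 (AT5G49730, 20201037 to 20204595) and FRO7 (AT5G49740, 20205302 to 20208777) follow each other on the minus strand of chromosome 5 with 706 bp between them. They have 382 exon stretches of 50 bases in common, so their counts could be split between the pair. Of such stretches 16.2% in FRO6 and 24.5% in FRO7 (633) occur elsewhere in the genome. FRO7 has more of these than it has in common with FRO6, so its reads may also match other places. No such stretch of the other 8 genes occurred elsewhere. OPT3 (AT4G16370) lies on chromosome 4 from 9247302 to 9250343, minus strand, and NAS4 (AT1G56430), with a single exon, on chromosome 1 from 21136835 to 21138277, plus strand. PYE (AT3G47640) lies on chromosome 3 from 17567126 to 17569394 and BTS (AT3G18290) on chromosome 3 from 6273966 to 6280562, both on the plus strand.

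Total counts ran from 18081553 to 31454984 a library, and levels below are counts scaled to the library total after adjustment between libraries (CPM). The LHP1 transcript itself had levels of 20.7, 13.9 and 18.6 CPM in mock WT, against 10.1, 8.33 and 9.80 CPM in mock lhp1. The jasmonate response gene JAZ10 went from 2.56 to 3.14 CPM across mock WT and from 100.4 to 106 CPM across JA WT, and VSP2, another such gene, from 0.264 to 1.99 CPM and from 47.6 to 59.6 CPM. The mock WT libraries differed from each other more than those of the other groups, with a chi-square per degree of freedom of 20.8 to 37.9 between pairs, against 5.7 to 11.9 in JA WT and 2.47 to 3.68 in mock lhp1. The summed level of 6 green leaf markers was 31062, 21021 and 26240 CPM in mock WT 1, 2 and 3, 27669 to 28460 CPM in JA WT and 12213 to 12410 CPM in mock lhp1. All 6 of these markers fell in mock lhp1 (median log2 fold change -1.03), where 14.4% of all genes tested fell. None was at 0, and their part in the results below was not tested. Leaf, root and phloem markers were all detected, as the label of whole seedlings implies. Of 9 root markers, 2 (CASP1 and COBL9) rose in mock lhp1 and 0 fell (median log2 fold change 0.45), where 11.1% of all genes tested rose and 14.4% fell. For 6 of the 9, all mock lhp1 libraries lay above mock WT, as they did for 4500 of the 20986 genes tested (44.6% had no overlap, counting both directions). The summed level of the 9 was 129 to 156 CPM in mock WT, 136 to 142 CPM in JA WT and 163 to 177 CPM in mock lhp1. In RNA from whole seedlings, fewer cells of a type and less RNA per cell cannot be told apart.

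Under jasmonate both shoot ferric reductase genes fell, FRO6 by 1.57 ± 0.25 and FRO7 by 1.28 ± 0.25 on the log2 scale, and NAS4 fell by 0.59 ± 0.15, while FER1 had its highest libraries in JA WT without passing the test. In mock lhp1, FER1, FER4 and FRO6 fell, by 2.73 ± 0.45, 1.17 ± 0.20 and 1.23 ± 0.25 on the log2 scale, and FER2 and OPT3 rose, by 0.67 ± 0.21 and 0.35 ± 0.09. The errors are approximate standard errors from edgeR's quasi-likelihood fit of all 9 libraries, and a gene counts as changed at a Benjamini-Hochberg adjusted p below 0.05 over all 20986 genes. Under jasmonate 0 of the 10 genes rose and 3 fell, where 8.62% of all genes tested rose and 7.07% fell. At an unadjusted p below 0.05 edgeR also had 0 higher, as did DESeq2, and limma-voom had 1 higher, while DESeq2 and limma-voom gave 0 higher and 3 lower after adjustment. In mock lhp1 2 of the 10 rose and 3 fell, where 11.1% of all genes rose and 14.4% fell. The 3 libraries of each group did not overlap for 3 of the 10 genes under jasmonate, against 30.1% of all genes, and for 5 of the 10 in mock lhp1, against 44.6%. As the genes were chosen with these contrasts known, nothing is read from these shares. Without mock WT 3, 5 of the 10 genes passed under jasmonate and 3 in mock lhp1, and without mock lhp1 2 again 3 in the mutant. Among all genes tested 1809 rose and 1483 fell under jasmonate (1217 and 3034 when libraries were scaled by total counts), and 2321 rose and 3023 fell in mock lhp1 (5042 and 1878). The median log2 fold change of the 10 genes was -0.12 in each comparison, and that of all genes tested was 0.00045 under jasmonate and 0.0043 in mock lhp1. Both comparisons use the same mock WT libraries.

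**Figure D1:**
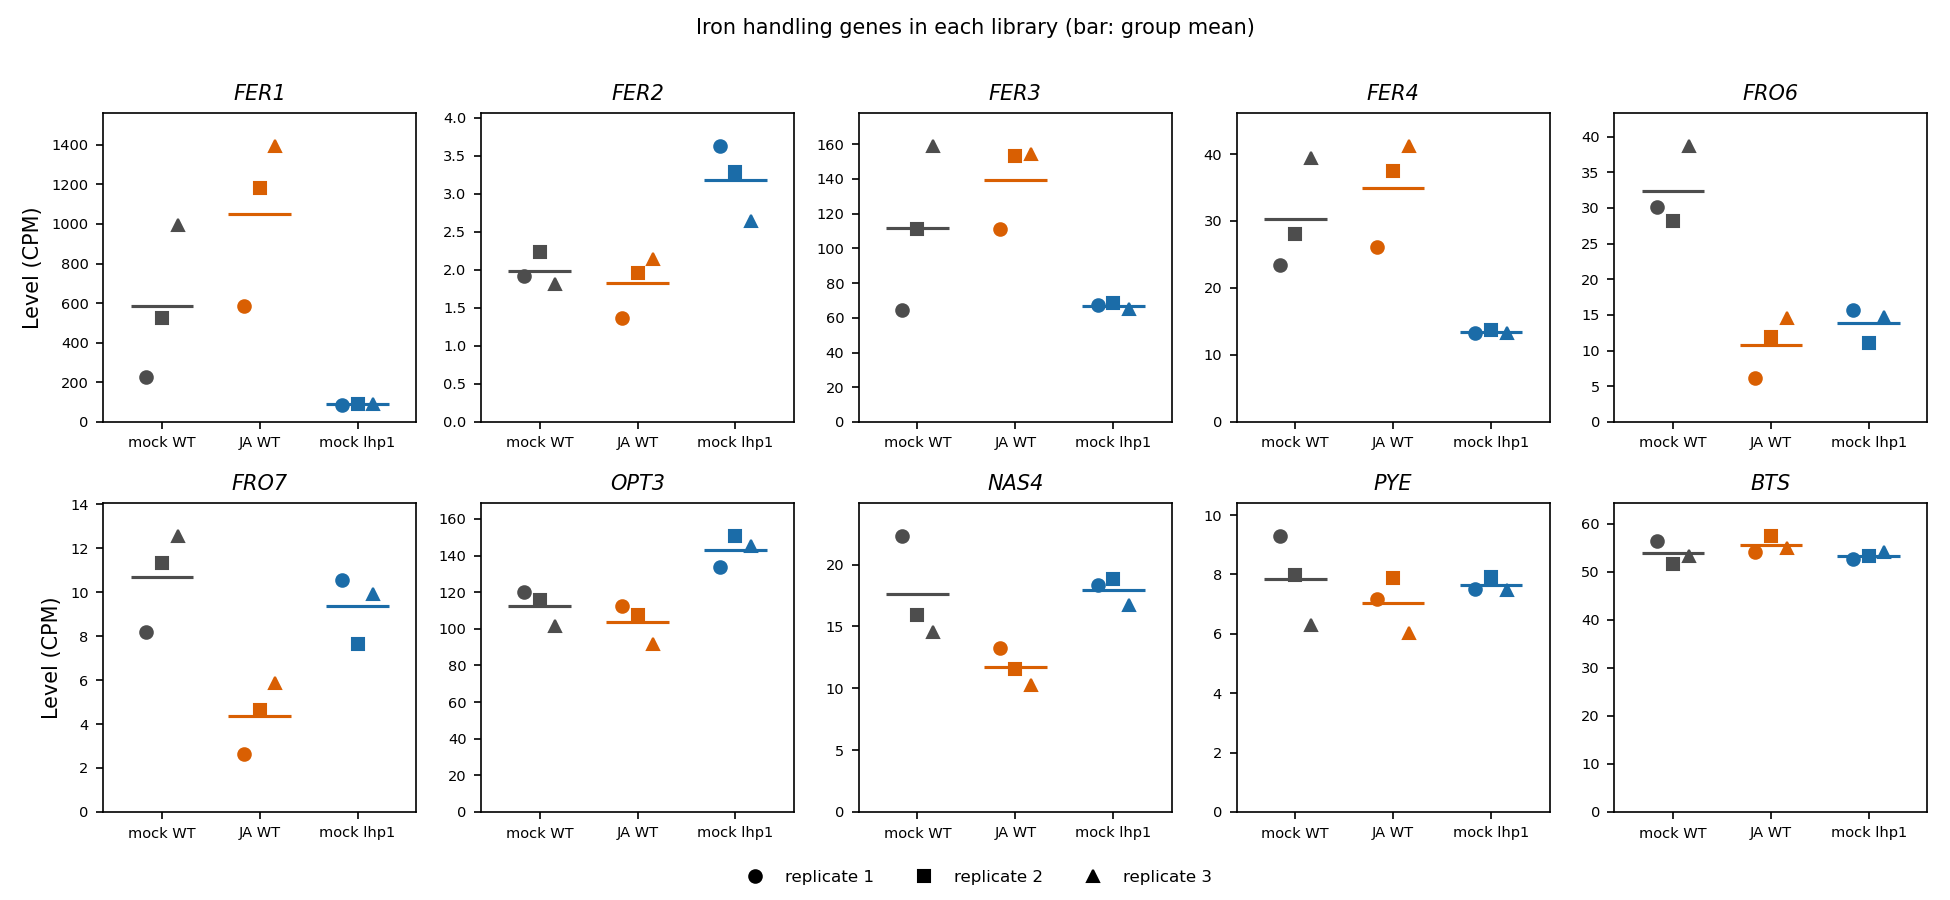
Level of each of the 10 genes in every library, in CPM (vertical axes start at 0 and differ between panels), with circles, squares and triangles for replicates 1, 2 and 3 and a bar for each group mean. FER1 spans 228 to 996 CPM in mock WT and 86.3 to 89.6 CPM in mock lhp1, and the JA WT libraries of FRO6 and FRO7 all lie under the mock WT libraries.

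FER1, the main leaf ferritin gene, was at 228, 526 and 996 CPM in mock WT 1, 2 and 3. It was at 584, 1180 and 1393 CPM in JA WT and at 86.3, 89.6 and 88.6 CPM in mock lhp1. The 3 mock lhp1 libraries lay close together under every wild-type library, and mock WT and JA WT overlapped. The group means were 583 ± 387 CPM (SD, n = 3) in mock WT, 1053 ± 419 CPM in JA WT and 88.2 ± 1.72 CPM in mock lhp1. FER1 was thus 6.62-fold lower in mock lhp1 than in mock WT, and its log2 fold change under jasmonate was 0.85 ± 0.43. Leaving out single libraries moved both values in either direction. In mock lhp1 the log2 fold change was -2.10 without mock WT 3 and -3.11 without mock WT 1, past the threshold each time. Under jasmonate it was 1.46 without mock WT 3, where it passed, 0.45 without mock WT 1 and 0.58 without JA WT 3. The leaf markers fell together with FER1 in mock lhp1, and their part in the FER1 level was not tested. Within mock WT the leaf marker sum was highest in mock WT 1, the library with the lowest FER1. The mock WT sums (21021 to 31062 CPM) all lay above those of mock lhp1 (12213 to 12410 CPM).

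FER3, a second leaf ferritin gene, was at 64.7, 111 and 159 CPM in mock WT, with mock WT 1 the lowest. It was at 111, 153 and 155 CPM in JA WT and at 67.5, 68.6 and 64.9 CPM in mock lhp1. The mock lhp1 libraries were all near mock WT 1, so those groups overlapped, as did mock WT and JA WT. Its log2 fold change was 0.32 ± 0.25 under jasmonate and -0.74 ± 0.25 in mock lhp1, and neither passed. Under jasmonate the value was 0.65 without mock WT 3, where it passed, and 0.034 without mock WT 1. In mock lhp1 it was -1.01 without mock WT 1, where it passed, and -0.39 without mock WT 3, and it also passed at -0.74 with no filter on low counts.

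FER4, whose protein is also known from mitochondria, was at 23.4, 28.1 and 39.5 CPM in mock WT, against 26.1, 37.5 and 41.2 CPM in JA WT. It was at 13.2, 13.8 and 13.3 CPM in mock lhp1, under every wild-type library, and the wild-type groups overlapped. The level in mock lhp1 was 2.26-fold lower than in mock WT, and the log2 fold change under jasmonate was 0.20 ± 0.19. FER2, the seed ferritin gene, had 32 to 74 counts a library, the fewest of the 10. It was at 1.93, 2.24 and 1.81 CPM in mock WT, at 1.37, 1.96 and 2.15 CPM in JA WT and at 3.63, 3.28 and 2.64 CPM in mock lhp1. All mock lhp1 libraries were above the wild-type ones, by 1.59-fold against mock WT, but the call was lost in 6 of 16 alternative settings, 5 of which left out a library. Its log2 fold change under jasmonate was -0.12 ± 0.22. Markers of maturing seed, 7 genes such as the cruciferin and oleosin genes, were too low to test, with 15 counts in all in mock WT and 111 in mock lhp1. Their summed level was 0.196, 3.23 and 1.89 CPM in mock lhp1 1, 2 and 3, at most 0.251 CPM in mock WT and at most 0.490 CPM in JA WT. FER2 was highest in mock lhp1 1, and the part of seed RNA in its level was not tested.

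Per kilobase of exon, the scale on which genes can be compared, FER1 gave most of the ferritin RNA in the wild type. Its share of the summed ferritin level per kb was 69.4% to 81.6% in mock WT and 79.1% to 86.3% in JA WT. In mock lhp1 the share was 47.7% to 49.5%, and FER3 came close to it with 40.3% to 41.5%. FER2 made up 0.184% to 0.724% in mock WT and 1.82% to 2.48% in mock lhp1. The summed ferritin level was 232, 482 and 858 CPM per kb in mock WT, 520, 982 and 1136 in JA WT and 126 to 131 in mock lhp1. Among all 10 genes in mock WT, FER1 was the highest at 411 ± 272 CPM per kb (SD, n = 3), ahead of FER3 at 87.4 ± 36.9, OPT3 at 41.7 ± 3.57 and FER4 at 24.2 ± 6.62. NAS4 at 12.2 ± 2.86, BTS at 12.0 ± 0.549 and FRO6 at 11.7 ± 2.02 CPM per kb followed and did not differ beyond their spread. PYE at 5.67 ± 1.08, FRO7 at 3.66 ± 0.768 and FER2 at 1.74 ± 0.194 CPM per kb were the lowest. The places of FRO6 and FRO7 in this order are less certain, as 16.2% and 24.5% of their exon stretches of 50 bases occur elsewhere. How reads with several matches were counted is not given.

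FRO6, the ferric reductase gene of the shoot plasma membrane, was at 30.2, 28.2 and 38.7 CPM in mock WT. It was at 6.13, 11.9 and 14.5 CPM in JA WT and at 15.7, 11.0 and 14.7 CPM in mock lhp1. Both of these groups lay wholly under mock WT, 2.97-fold lower in JA WT and 2.34-fold lower in mock lhp1. FRO7, its chloroplast neighbour, was at 8.20, 11.3 and 12.6 CPM in mock WT, against 2.61, 4.66 and 5.88 CPM in JA WT, 2.42-fold lower with no overlap. In mock lhp1 it was at 10.5, 7.62 and 9.93 CPM, within the mock WT range but for 1 library, with a log2 fold change of -0.19 ± 0.24. FRO6 and FRO7 thus both fell under jasmonate, and in mock lhp1 FRO6 fell while FRO7 did not pass. The difference between the pair in mock lhp1 was not tested, and the shared exon stretches can carry reads from one gene to the other. FRO6 passed in both comparisons, and FRO7 under jasmonate, in all 16 alternative settings.

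OPT3, the phloem iron loader, was at 120, 116 and 102 CPM in mock WT, at 112, 108 and 91.6 CPM in JA WT and at 134, 151 and 145 CPM in mock lhp1. The mock lhp1 libraries were all above the others, 1.27-fold over mock WT. This call was lost without mock WT 3, mock lhp1 2 or mock lhp1 3. The summed level of 4 phloem markers was 135 to 156 CPM in mock WT, 134 to 165 in JA WT and 154 to 158 in mock lhp1, none of the 4 passed in either comparison, and none was at 0. Under jasmonate the log2 fold change of OPT3 was -0.12 ± 0.09, with overlap. NAS4 was at 22.3, 15.9 and 14.6 CPM in mock WT, against 13.3, 11.5 and 10.3 CPM in JA WT, 1.51-fold lower with no overlap. That call was lost when the fit held only the groups compared, and without JA WT 2 or JA WT 3. In mock lhp1 NAS4 was at 18.3, 18.8 and 16.7 CPM, inside the mock WT range.

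The regulators PYE and BTS did not pass in either comparison. PYE, which represses NAS4 and other iron genes, was at 9.29, 7.98 and 6.30 CPM in mock WT, at 7.16, 7.90 and 6.02 CPM in JA WT and at 7.50, 7.92 and 7.47 CPM in mock lhp1. All 3 groups overlapped, with log2 fold changes of -0.17 ± 0.15 under jasmonate and -0.04 ± 0.15 in mock lhp1. BTS was at 56.5, 51.6 and 53.4 CPM in mock WT, at 54.2, 57.4 and 55.0 CPM in JA WT and at 52.6, 53.3 and 54.2 CPM in mock lhp1. Its log2 fold changes were 0.04 ± 0.06 and -0.01 ± 0.06, with the smallest errors of the 10 genes. The sign of the BTS value flipped with scaling by total counts in both comparisons, and that of PYE did so in mock lhp1.

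**Figure D2:**
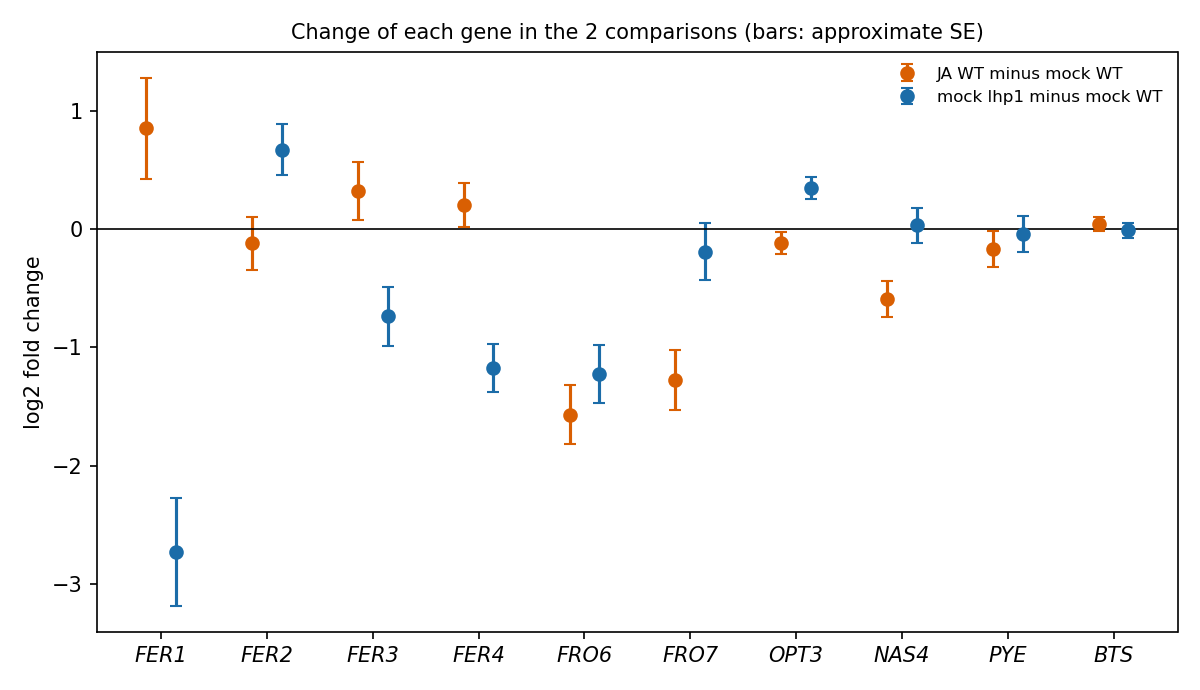
Log2 fold change of each of the 10 genes under jasmonate (orange) and in mock lhp1 (blue), both against mock WT, with bars for the approximate standard error from the fit of all 9 libraries. FER1 lies at 0.85 under jasmonate and at -2.73 in mock lhp1, FRO6 lies below 0 in both, and BTS lies near 0 in both.

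Replicates within a group varied widely for some of these genes. The ratio of the highest to the lowest mock WT library was 4.36 for FER1, and 0.405% of the 15557 genes that averaged 5 CPM or more were as wide, where the median gene had a ratio of 1.19. In JA WT the ratio was 2.38 for FER1, 2.37 for FRO6 and 2.25 for FRO7, widths that 0.264%, 0.289% and 0.36% of genes reached. In mock lhp1 FER1 had a ratio of 1.04, a width that 88.5% of genes reached. FER3 was also wide in mock WT, with a ratio of 2.46, and had a ratio of 1.06 in mock lhp1. BTS stayed narrow in all 3 groups, with ratios of 1.09, 1.06 and 1.03. In both wild-type groups replicate 1 was the lowest and replicate 3 the highest for FER1, FER3, FER4 and FRO7, a ranking that 4.23% of all genes had in both. OPT3 and NAS4 had the reverse ranking in both groups, as did 4.76% of all genes. These rankings were looked for after the values were seen, and the labels do not say what, if anything, libraries of the same number share.

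**Figure D3:**
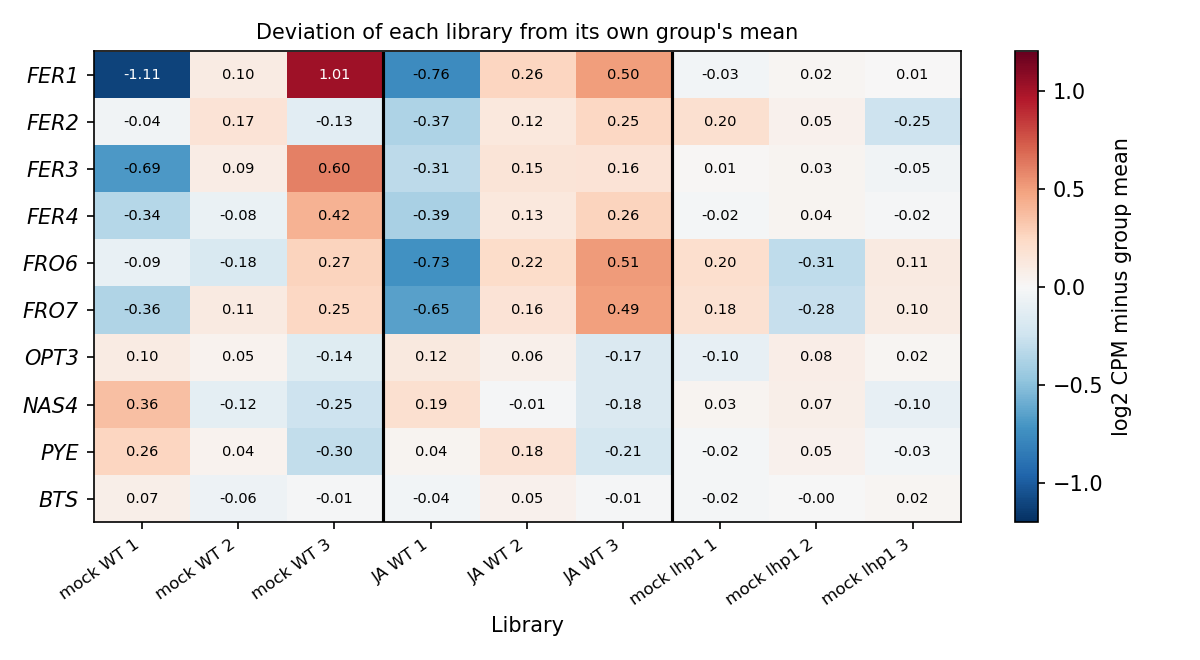
Deviation of every library from the mean of its own group on the log2 CPM scale, for the 10 genes (rows) and the 9 libraries (columns), with red above and blue below the group mean. FER1 deviates by -1.11 in mock WT 1 and by 1.01 in mock WT 3, and by at most 0.03 in either direction in mock lhp1.

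The other iron genes were read in 4 lists set by known function, of regulators, root surface uptake, transport and chelation, and iron proteins. Like the 10 genes, the lists were chosen with earlier results of these data known, so adjusted p-values of their genes are a description. Their counts stand against the 8.62% of all genes that rose and 7.07% that fell under jasmonate, and the 11.1% and 14.4% in mock lhp1, and nothing particular to a list is read from them. Of 18 measured regulators 6 fell under jasmonate and 0 rose (median log2 fold change -0.75), and 11 passed without mock WT 3. At an unadjusted p below 0.05 it was 12 lower and 0 higher with edgeR, and DESeq2 and limma-voom gave 0 higher too. Those that fell included the FIT partners BHLH38 (-3.06 ± 0.45, edgeR adjusted p = 0.00064), BHLH100 (-2.82 ± 0.81, adjusted p = 0.036) and BHLH101 (-1.64 ± 0.39, adjusted p = 0.015). In JA WT, BHLH38 had 5 to 10 counts a library, BHLH100 1 to 7 and BHLH101 3 to 6, so these fold changes rest on few reads. The mock WT and JA WT libraries of BHLH100 overlapped, and its call was lost in 8 of 16 settings. AT1G74770 also fell (-1.68 ± 0.19, edgeR adjusted p = 8.9e-05), as did FIT, the master factor of root iron uptake (-1.06 ± 0.10, adjusted p = 2.5e-05). PYE and BTS, which belong to the same circuit, did not pass. Of 10 root surface uptake genes 6 fell and 2 rose under jasmonate (median -0.68). They included the ferric reductase gene FRO2 (-2.35 ± 0.14, edgeR adjusted p = 4.8e-07) and the iron transporter gene IRT1 (-1.69 ± 0.16, adjusted p = 2.2e-05), which was at 48.6 ± 8.87 CPM (SD, n = 3) in JA WT and at 157 ± 20.7 CPM in mock WT. Within this list AT3G12900 (-1.87) and CYP82C4 (-1.53), an enzyme gene of coumarin synthesis, fell too. The calls of BHLH101 and AT3G12900 were lost in 2 and 1 of the 16 settings, and AT3G12900 had 5 to 16 counts a library in JA WT.

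Of 25 measured transport and chelation genes 6 rose and 4 fell under jasmonate (median 0.22). With scaling by total counts 1 rose (ZIF1) and 5 fell, so the split between directions depended on the scaling. The reductase gene FRO4 fell by 1.47 ± 0.16 on the log2 scale (edgeR adjusted p = 8e-05), NAS1, a nicotianamine synthase gene like NAS4, by 0.97 ± 0.24 (adjusted p = 0.017) and the efflux gene IREG1 by 0.90 ± 0.15 (adjusted p = 0.0015). This call of NAS1 was lost in 2 of the 16 settings. ZIF1, whose protein moves nicotianamine into the vacuole, rose by 1.19 ± 0.09 (edgeR adjusted p = 5.1e-06). Of 8 genes for iron proteins 1 rose, the ascorbate peroxidase gene APX1 (0.68 ± 0.10, edgeR adjusted p = 0.0007), and the other 7 did not pass (median of the list 0.14). Without mock WT 2, 2 genes of this list passed.

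In mock lhp1 5 of the 8 iron protein genes fell and 0 rose (median -0.33), against 14.4% and 11.1% of all genes, and DESeq2 and limma-voom gave the same counts, with 0 higher also at an unadjusted p below 0.05. When libraries were scaled by total counts, 3 of the 8 fell (NEET, FD2 and ABCI8) and 2 rose. NEET was at -1.98 ± 0.28 (edgeR adjusted p = 0.00079), the leaf ferredoxin gene FD2 at -1.53 ± 0.12 (adjusted p = 0.00011), the plastid iron-sulfur scaffold gene ABCI8 at -0.75 ± 0.10 (adjusted p = 0.00062) and APX1 at -0.33 ± 0.10 (adjusted p = 0.032). These 5 fell beside FER1, FER4 and the 6 leaf markers, and the part of the leaf markers in this was not tested. Nicotianamine synthase genes passed in both directions in mock lhp1. NAS3 fell by 2.03 ± 0.18 on the log2 scale (edgeR adjusted p = 0.00014), NAS1 rose by 0.94 ± 0.23 (adjusted p = 0.014), and NAS4 was at 0.03 ± 0.15. Of the 25 transport genes 1 rose and 3 fell (median -0.06), with IREG3 at -0.46 and TIC21 at -0.33 beside NAS3. With scaling by total counts 4 rose and 1, NAS3, fell. Of the uptake genes 3 rose (ABCG37, NRAMP1 and F6'H1) and CYP82C4 fell, by 0.90 ± 0.24 (edgeR adjusted p = 0.018), with a list median of -0.01. IRT1 was at -0.21 ± 0.15 (edgeR adjusted p = 0.35). Of the 18 regulators 2 fell, FIT by 0.39 ± 0.10 (edgeR adjusted p = 0.016) and bHLH121 by 0.39 ± 0.10 (adjusted p = 0.019), and the list median was 0.13. The calls of FIT, bHLH121, IREG3, CYP82C4, NRAMP1, APX1, ABCG37 and F6'H1 in mock lhp1 were each lost in 3 to 7 of the 16 settings. With scaling by total counts neither FIT nor bHLH121 passed in mock lhp1 and 3 other regulators rose. The regulators that passed in mock lhp1 were 5 without mock WT 1, 1 without mock WT 3 and 0 without mock lhp1 2 or mock lhp1 3. The uptake genes that passed there were 2 without mock WT 1, 1 without mock lhp1 1 and 0 without mock WT 3, mock lhp1 2 or mock lhp1 3.

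**Figure D4:**
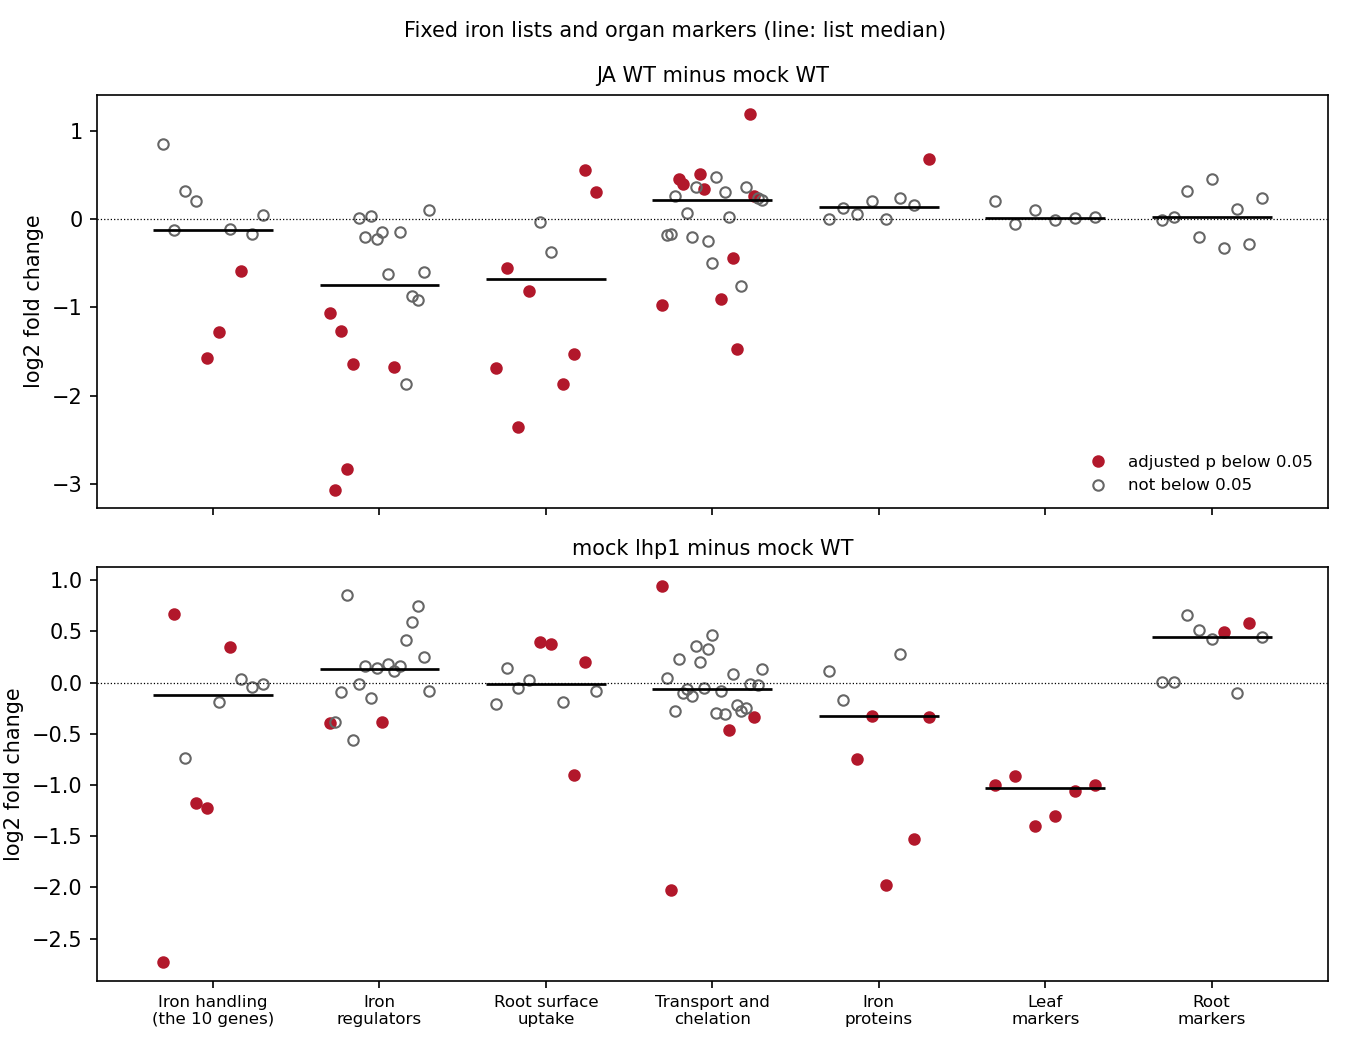
Log2 fold change of every measured gene in the 10 iron handling genes, 4 lists of other iron genes and the leaf and root marker lists, under jasmonate (top) and in mock lhp1 (bottom), with filled points for adjusted p below 0.05 and a line for each list's median. The regulators' median lies at -0.75 under jasmonate and at 0.13 in mock lhp1, and all 6 leaf markers are filled and below 0 in mock lhp1.

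The genes whose levels tracked FER1 most closely over the 9 libraries, by Pearson's r of log2 CPM among 15556 genes, were NOA1 (0.993), AT1G09230 (0.991), FER4 (0.987) and PMSR4 (0.986). NOA1 ran from 32.7 to 50.6 CPM and PMSR4 from 143 to 220 CPM, so their ranges were narrower than that of FER1. For PYE the closest were AT1G55530 (0.942), the ammonium transporter gene AMT1;2 (0.93), the tubulin gene TUA1 (0.927) and AT2G46170 (0.925). For BTS they were SGP2 (0.898), AT1G17330 (0.885), AT1G54380 (0.884) and AT2G32380 (0.879), a lower likeness over a narrow range of levels. The 9 libraries fall into 3 groups, so these values mix differences between groups with those within them. They are also the highest of 15556 values for each gene over only 9 libraries, a choice that by itself gives high values.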

How the data were processed

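Polyadenylated RNA was measured in 9 libraries in 3 groups of 3, with replicate numbers from the titles. The labels do not say whether the libraries of a group came from separate cultures, so p-values measure the spread between these libraries, which may be technical. The authors deposited whole-number read counts per gene, not normalized, as the values show. TopHat, HTSeq and edgeR are the tools, and TAIR10 the build, named per the submitters' processing notes. Versions, strand setting and the treatment of reads with several matches are not given in the sources used here. The table holds 12 columns of libraries, of which 3 match no sample and were not used here.

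Genes were filtered with filterByExpr, scaled by TMM factors (0.911 to 1.10) and tested with edgeR 4.0.16 (R 4.3.3), a quasi-likelihood test with 1 mean per group over all 9 libraries, two-sided, adjusted by Benjamini-Hochberg over 20986 genes at 0.05. The biological coefficient of variation was 0.106. Standard errors are the log2 fold change divided by the root of F. Alternatives used limma 3.58.1 and DESeq2 1.42.0. Names, coordinates and sequences come from RefSeq's TAIR10.1. The start-site window of 1 of the 10 genes is not reported here. The 10 genes and all lists were chosen with earlier results of these data known. Named beside them are, from each list, up to 4 changed genes with the largest fold change per comparison, FIT and IRT1 in any case, LHP1, JAZ10 and VSP2 as label checks, and the 4 genes most like FER1, PYE and BTS.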

Additional observations from a re-analysis of the deposited data

How the results depend on the processing

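The alternatives were other scalings (RLE, total counts), no filter on low counts, DESeq2, limma-voom, only the groups compared, the replicate number as a block, and leaving out each library in turn. FRO6 and FRO7 under jasmonate and FER1, FER4 and FRO6 in mock lhp1 passed under all 16. Scaling by total counts moved the median of all genes to -0.122 under jasmonate and 0.15 in mock lhp1. It gave 3034 genes lower under jasmonate (1483 in the main result, with 1809 higher against 1217) and 5042 higher and 1878 lower in mock lhp1 (2321 and 3023), and 6 called transport genes under jasmonate in place of 10, 1 higher and 5 lower in place of 6 and 4. In mock lhp1 it turned the split of the calls to 3 higher and 0 lower for regulators (0 and 2), 4 and 1 for transport genes (1 and 3) and 2 and 3 for iron proteins (0 and 5). With only the groups compared, 934 genes were lower and 1294 higher under jasmonate, 2 of the 10 iron handling genes passed there, and 2 uptake genes passed in mock lhp1 in place of 4.

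Leaving out each library gave 2 to 5 of the 10 genes called under jasmonate and 3 to 5 in mock lhp1, with 5 under jasmonate without mock WT 3 and 3 in mock lhp1 without mock WT 3 or mock lhp1 2. Under jasmonate it gave 5 to 11 regulators, 6 to 9 uptake genes, 7 to 12 transport genes, 1 to 2 iron protein genes, 1290 to 1843 genes higher and 1042 to 1998 lower. In mock lhp1 it gave 0 to 5 regulators, 0 to 4 uptake genes, 3 to 6 transport genes, 4 to 6 iron protein genes, 1107 to 3289 genes higher and 2074 to 3571 lower, the lowest of both without mock lhp1 2. Without mock WT 2, which had the lowest leaf marker sum of its group, 3 and 5 of the 10 genes passed, as before.

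Signs that changed were all of values near 0. Under jasmonate FER2 was 0.031 without JA WT 1, in a range from -0.28, and BTS was -0.076 with total counts. In mock lhp1 NAS4 ran from -0.085 to 0.24 when libraries were left out, PYE from -0.18 to 0.098 and BTS from -0.043 to 0.027. With total counts PYE was 0.11 and BTS 0.13, and BTS was 0.0020 with RLE and 0.0025 with DESeq2. The causes were not tested.

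Deviations of libraries of the same replicate number correlated at 0.215, 0.0313 and 0.133 between JA WT and mock WT. Unlike numbers there gave -0.201 to 0.0852, the highest for JA WT 2 with mock WT 3. Between mock lhp1 and mock WT the same numbers gave -0.0766, -0.0106 and 0.0403, and unlike numbers -0.104 to 0.105. Whether libraries of the same number are paired cannot be told from these values. With the replicate block 3 of the 10 genes were called under jasmonate and 5 in mock lhp1, where FER3 (-0.66) passed and FER2 (0.68) did not. FER2 had at most 74 counts a library, so its values carry the widest relative counting error of the 10 genes.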

Other observations

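The order of the wild-type libraries that OPT3 and NAS4 showed, with replicate 1 the highest and replicate 3 the lowest, was also seen in mock WT for 11 of the 18 measured iron regulators, against 17% of all genes tested. In both wild-type groups it was seen for 4 of the 18 (BHLH39, BHLH100, AT1G74770 and MYB10), against 4.76% of all genes. The order was chosen after the values were seen, and the genes of this list are not independent of each other. Of the 25 transport and chelation genes 11 had the ranking of FER1 in mock WT, with replicate 1 the lowest, against 17.3% of all genes. In both wild-type groups 5 had it (YSL3, VTL1, VTL2, VTL5 and TIC21), against 4.23% of all genes. In mock WT the FER1 ranking also stood for 2 of the 10 uptake genes, 1 of the 18 regulators and 1 of the 8 iron protein genes. The reverse stood there for 5 transport, 3 uptake and 1 iron protein genes. Both rankings were chosen after the values were seen, and nothing particular to a list is read from these counts.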
